A study of Homo sapiens with 3 samples.

Results

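Canonical polycomb repressive complex 1 (PRC1) was followed through a genome-wide CRISPR knockout screen for genes that restrain HLA-B in K562 cells, a human leukaemia line whose surface holds little MHC class I (MHC-I). Its members were taken by name: all single guide RNAs (sgRNAs) whose name starts with CBX2, CBX6, CBX7, CBX8, PCGF2, BMI1, PHC1, PHC2 or PHC3 followed by an Ensembl gene identifier. This gave 9 of the 20381 genes targeted and 88 of the 200682 sgRNAs seen in any library, with 10 sgRNAs for every member but BMI1, for which 8 were seen. Cas9-expressing K562 cells were transduced with the Bassik Human CRISPR KO Library, a lentiviral pool, at 0.3 infectious units per cell, and 72 h of selection in 1 μg/mL puromycin began 48 h later. The HLA-B high sorted library came from cells given 1 ng/mL interferon-gamma (IFN-γ) for 24 h and enriched by flow sorting with an HLA-B antibody at days 18 and 25. The high-screen control (high pool) is made of unsorted cells of that screen. The low-screen control (low pool) is made of unsorted cells of another screen, which took cells low in MHC-I at days 7 and 15 after 25 ng/mL IFN-γ. All 3 libraries were made by PCR from genomic DNA of sgRNA-carrying, Cas9-expressing K562 cells, and none of the groups has a replicate. The labels do not give the day on which a pool was harvested or whether it had received IFN-γ, and they disagree on the antibody of the low screen. Counts of sgRNAs hold no expression against which the cell line could be checked.

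PRC1 is an E3 ligase that places ubiquitin on lysine 119 of histone H2A through the catalytic subunit RING1 or RNF2, bound to a PCGF protein. In the canonical form the PCGF protein is PCGF2 (MEL18) or BMI1 (PCGF4), a CBX protein reads trimethylated lysine 27 of histone H3, the mark laid down by PRC2, and a PHC protein can polymerise through its SAM domain and bring distant polycomb sites together. Variant PRC1 complexes hold other PCGF proteins and RYBP or YAF2 in place of the CBX and PHC subunits. The question put to each subunit was whether its knockout left cells with more HLA-B after a low dose of IFN-γ.

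Reads matched to an sgRNA numbered 34266318 after the sort, 22562241 in the high pool and 98426251 in the low pool. Of all sgRNAs 49.6% were seen in the sorted library, against 97.7% in the high pool and 93.4% in the low pool. Of the 88 sgRNAs against canonical PRC1, 52 were seen in the sorted library, 87 in the high pool and 80 in the low pool. They took 0.0513% of sorted reads (17565 reads), 0.0407% of high pool reads (9178) and 0.0377% of low pool reads (37135). The median member sgRNA had 3 reads in the sorted library, 82.5 in the high pool and 369 in the low pool, where all gene-targeting sgRNAs had medians of 0, 86 and 386. The 5 most abundant of the 52 member sgRNAs seen after the sort held 49.6% of the members' sorted reads.

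No canonical PRC1 gene was called enriched or depleted in the sort. Genes were scored by redundant siRNA activity (RSA), which ranks every sgRNA by its log2 ratio of scaled reads and asks how far the sgRNAs of a gene lie together at one end. To be called, a gene needed an RSA p under 0.001 and 4 or more sgRNAs at or beyond its best rank. Against the high pool 0 of 9 members were called enriched, where 0.31% of the 20314 genes tested were (63 genes), and 0 of 9 were called depleted, where 0.418% were (85 genes). The lowest RSA p for enrichment was 0.0018 for PHC1, and the exact p of that score was 0.0089 before adjustment and 0.902 after Benjamini-Hochberg adjustment over all genes. No other member had an exact p under 0.05 for enrichment. With 1 library per group there is no spread between replicates to set against these values, and each p compares sgRNAs within these libraries, not the conditions.

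The sgRNAs of the members were spread over the range that most of the library covered. A minimum of 10 reads in the high pool left 83 member sgRNAs to rank. Of these, 12 had a log2 ratio above 1, which is 14.5%. Its 95% Clopper-Pearson interval, 7.70 to 23.9%, takes sgRNAs as independent draws. The share over all gene-targeting sgRNAs was 12.6% and over safe-targeting sgRNAs, which cut genomic sites of no known function, 11.7%. Among non-targeting sgRNAs, designed to cut nowhere, 15.8% were above 1. A log2 ratio below -1 was found for 56 of the 83, or 67.5% (56.3 to 77.4%). That share was 70.8% of gene-targeting, 71.5% of safe-targeting and 60.4% of non-targeting sgRNAs. The median of the 9 gene medians was -4.56, beside -4.54 over all genes. Both values depend on how absent sgRNAs are treated, and with absent sgRNAs set to a floor of 3 reads they were -3.69 for the members and -3.65 over all genes. Within canonical PRC1 the medians still ranged widely, between -5.82 for CBX6 and -1.32 for CBX2.

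**Figure D1:**
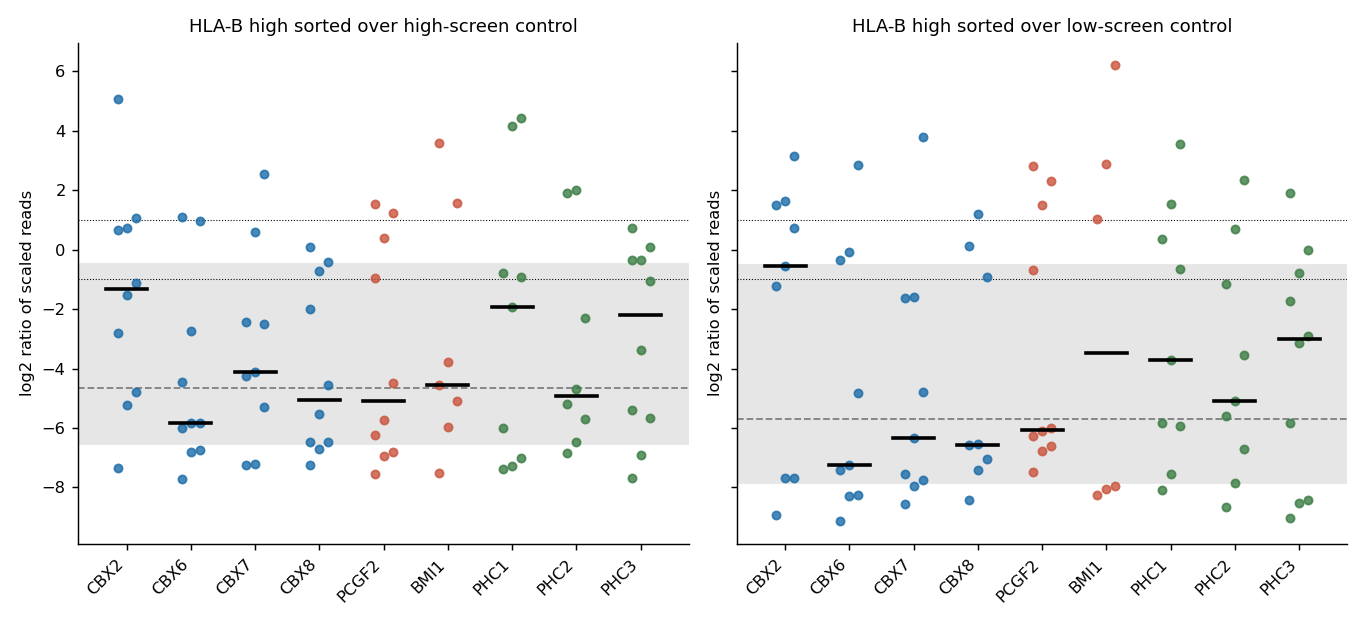
log2 ratio of scaled reads (pseudocount of 1 read) for each ranked sgRNA of the 9 members, HLA-B high sorted over high-screen control on the left and over low-screen control on the right. Points are sgRNAs (blue CBX, red PCGF, green PHC), black bars gene medians, the grey band and dashed line the interquartile range and median over all gene-targeting sgRNAs, and dotted lines the thresholds at 1 and -1. Each member has sgRNAs below -5, no member has more than 2 above 1 on the left, and the medians lie between -5.82 and -1.32 there.

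The chromodomain subunits tether canonical PRC1 to PRC2-marked chromatin. Over the high pool they had 4 of 39 ranked sgRNAs above 1 (10.3%, against 12.6% of all gene-targeting sgRNAs). Absent from the sorted library were 17 of 40 (42.5%, against 50.8%). CBX2 (chromosome 17, 77751947 to 77761782, plus strand, GRCh37), which can also compact nucleosome arrays, had the highest median of the 9 members at -1.32 (interquartile range -4.29 to 0.71), above those of 87.7% of genes. Its sgRNA 8 had 2169 reads in the sorted library, 42 in the high pool and 706 in the low pool, a log2 ratio of 5.06 over the first pool and 3.14 over the second. It made up 57.6% of all CBX2 reads after the sort. CBX2 sgRNAs 4, 5 and 7 were above their share of the high pool by less. sgRNA 4 had 474 sorted reads against 149 in the high pool and 439 in the low pool, and its log2 ratios were 1.06 and 1.63. sgRNA 5 had 592 sorted reads against 247 and 600 in the same pools, and sgRNA 7 had 393 against 156 and 685. The remaining CBX2 sgRNAs were lower in the sort than in the high pool, and 3 of them had no sorted read. The lowest, sgRNA 1, had 0 sorted reads against 128 in the high pool, at least 64.8-fold lower when 3 reads are taken as the floor. Summed over sgRNAs CBX2 had 109.9 matched-read CPM, which are reads scaled to a common library size, in the sorted library, 45.7 in the high pool and 44.6 in the low pool. The RSA p for enrichment was 0.0226, which rested on 1 sgRNA, with an exact adjusted p of 0.967.

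CBX8 (chromosome 17, 77765931 to 77775482, minus strand), whose gene ends 4148 bases from that of CBX2, gave a different picture. None of its 10 sgRNAs exceeded 1, 7 were below -1 and the median was -5.05 (-6.47 to -1.05). The highest was sgRNA 5, with 624 reads in the sorted library, 390 in the high pool and 774 in the low pool and a log2 ratio of 0.08 over the first pool. It supplied 71.8% of the sorted CBX8 reads. The lowest, sgRNA 7, had 1 sorted read against 220 in the high pool and 415 in the low pool, and 4 CBX8 sgRNAs had none. The summed abundance was 25.4 CPM in the sorted library, 54.6 in the high pool and 33.2 in the low pool. Whether CBX2 and CBX8 differ was not tested, since there is 1 library per group.

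CBX6 and CBX7 lie on chromosome 22 (39257427 to 39268254 and 39516172 to 39548685, both minus strand). CBX6 had the lowest median of the 9, -5.82 (-6.55 to -3.17), with 6 of 10 sgRNAs absent from the sorted library. Its highest, sgRNA 9, had 259 reads in the sorted library, 80 in the high pool and 792 in the low pool, so that its log2 ratio was 1.08 over one pool and -0.09 over the other. The most abundant CBX6 sgRNA after the sort was sgRNA 6, with 719 sorted reads against 243 and 284 in the high and low pools and log2 ratios of 0.96 and 2.86. At the low end sgRNA 7 had 0 sorted reads against 167 in the high pool, at least 84.5-fold lower. CBX7, the CBX protein best known from mouse embryonic stem cells, had a median of -4.10 (-5.28 to -2.43) over 9 ranked sgRNAs. sgRNA 9 of CBX7 stood alone, with 682 reads in the sorted library, 77 in the high pool and 140 in the low pool. Its log2 ratios of 2.53 and 3.79 made it the CBX sgRNA with the highest ratio over the low pool among those ranked there. CBX7 sgRNA 6 had 134 sorted reads, 58 in the high pool and none in the low pool, and its log2 ratio over the first pool was 0.60. The lowest CBX7 ratio belonged to sgRNA 5, with 0 sorted reads against 119 in the high pool, at least 60.2-fold lower. In sum CBX6 had 29.4 CPM in the sorted library and 47.2 in the high pool, and CBX7 had 28.1 and 49.2. The RSA p for enrichment was 0.378 for CBX6, 0.309 for CBX7 and 0.896 for CBX8.

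**Figure D2:**
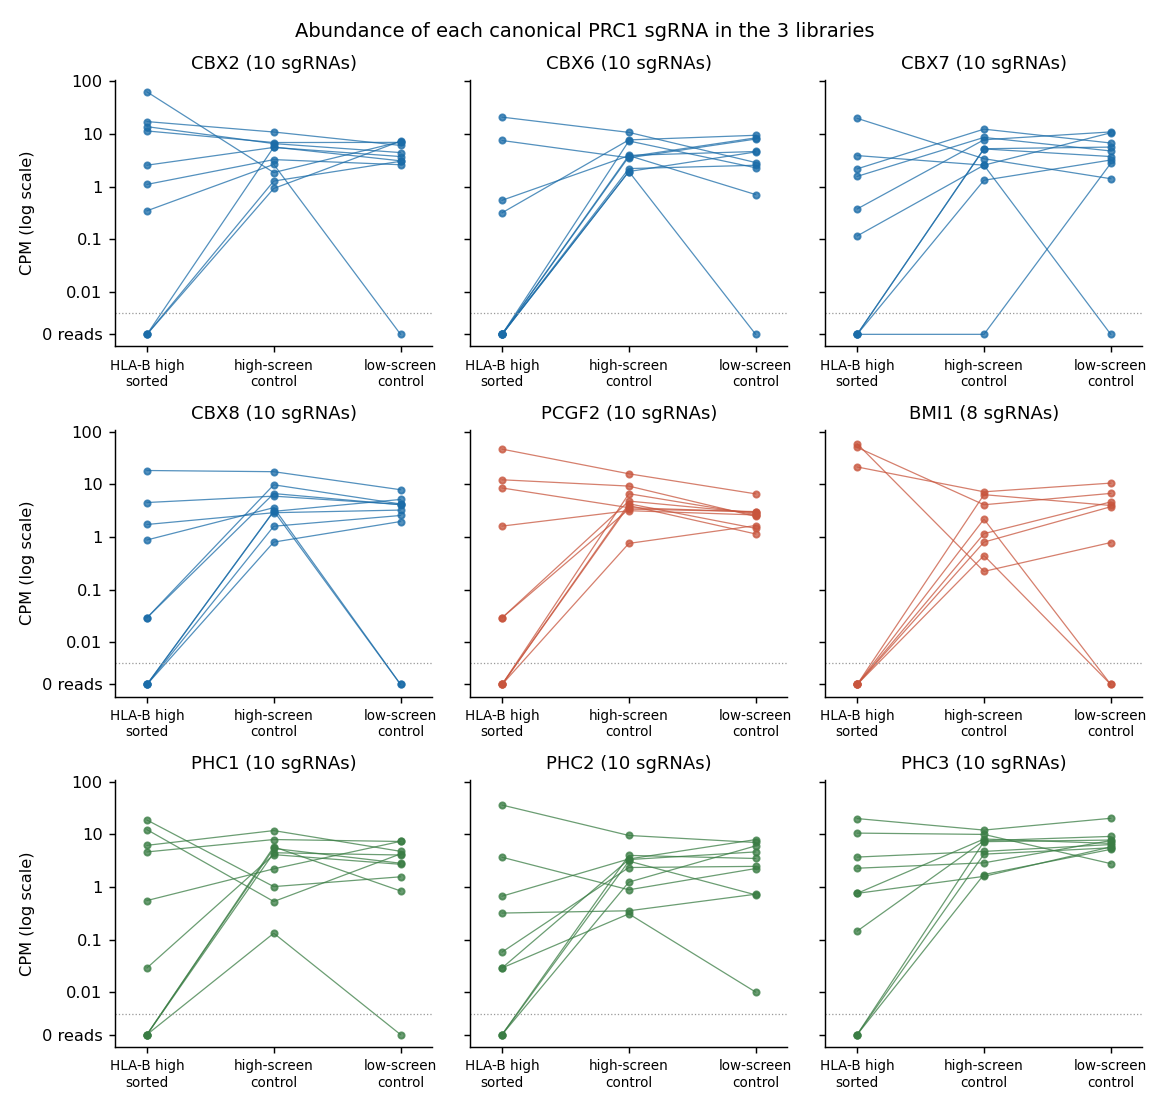
Abundance in CPM (log scale, with sgRNAs of 0 reads drawn on a separate line under the dotted rule) of each sgRNA of the 9 members in the HLA-B high sorted library, the high-screen control and the low-screen control, with a line joining the values of 1 sgRNA. In every panel most values lie between 0.1 and 20 CPM in the unsorted pools and spread over a wider range after the sort, where 36 of the 88 sgRNAs have no read.

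The PCGF subunits pair with RING1 or RNF2 and set the composition of the complex. Over the high pool they had 4 of 17 ranked sgRNAs above 1 (23.5%, 6.81 to 49.9%), against 12.6% of all gene-targeting sgRNAs. Absent from the sorted library were 9 of 18 (50%, against 50.8%). PCGF2 (chromosome 17, 36890151 to 36906070, minus strand) had 3 sgRNAs above a log2 ratio of 0 and 7 below it. sgRNA 10 had 1588 reads in the sorted library, 356 in the high pool and 646 in the low pool, with log2 ratios of 1.55 and 2.82. sgRNA 6 had 291 sorted reads against 81 and 293 in the same pools, with ratios of 1.23 and 1.51, and sgRNA 9 had 416 against 208 and 241, with ratios of 0.40 and 2.30. Of the other 7 PCGF2 sgRNAs 4 had no sorted read, 2 had 1 read each, and sgRNA 7 had 55 reads against 71 in the high pool. Its lowest, sgRNA 2, had 0 sorted reads against 149, at least 75.4-fold lower. The median was -5.11 (-6.67 to 0.06), and the summed abundance was 68.6 CPM in the sorted library, 55.4 in the high pool and 27.4 in the low pool.

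BMI1 (chromosome 10, 22610028 to 22620413, plus strand) had the highest summed abundance of the members in the sort and the lowest in the high pool, at 129.9 CPM in the sorted library, 22.4 in the high pool and 30.3 in the low pool. Of its 8 sgRNAs 3 had reads in the sorted library and 5 had none. sgRNA 10 had 2008 sorted reads against 5 in the high pool and 77 in the low pool. With 5 reads it fell under the minimum of 10 and was not ranked against the high pool, while its log2 ratio over the low pool was 6.20, the highest of any member sgRNA ranked there. sgRNA 4 had 1714 sorted reads against 92 in the high pool and 659 in the low pool, with log2 ratios of 3.61 and 2.90. sgRNA 5 had 729 against 162 and 1033, with ratios of 1.56 and 1.02. The 5 absent sgRNAs had between 10 and 143 reads in the high pool, and the lowest, sgRNA 2 with 143, was at least 72.4-fold lower in the sort. The median over the 7 ranked sgRNAs was -4.56 (-5.52 to -1.10), and -3.19 with absent sgRNAs at the floor. The sign of the BMI1 median depended on the minimum and the measure. A minimum of 50 reads left only sgRNAs 2, 4 and 5, with a median of 1.56, and dropped the absent sgRNAs 6, 7, 8 and 9. The log2 ratio of summed reads was 2.54. The RSA p for enrichment was 0.0929 for BMI1 (exact adjusted p = 0.992) and 0.248 for PCGF2 (exact adjusted p = 1).

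**Figure D3:**
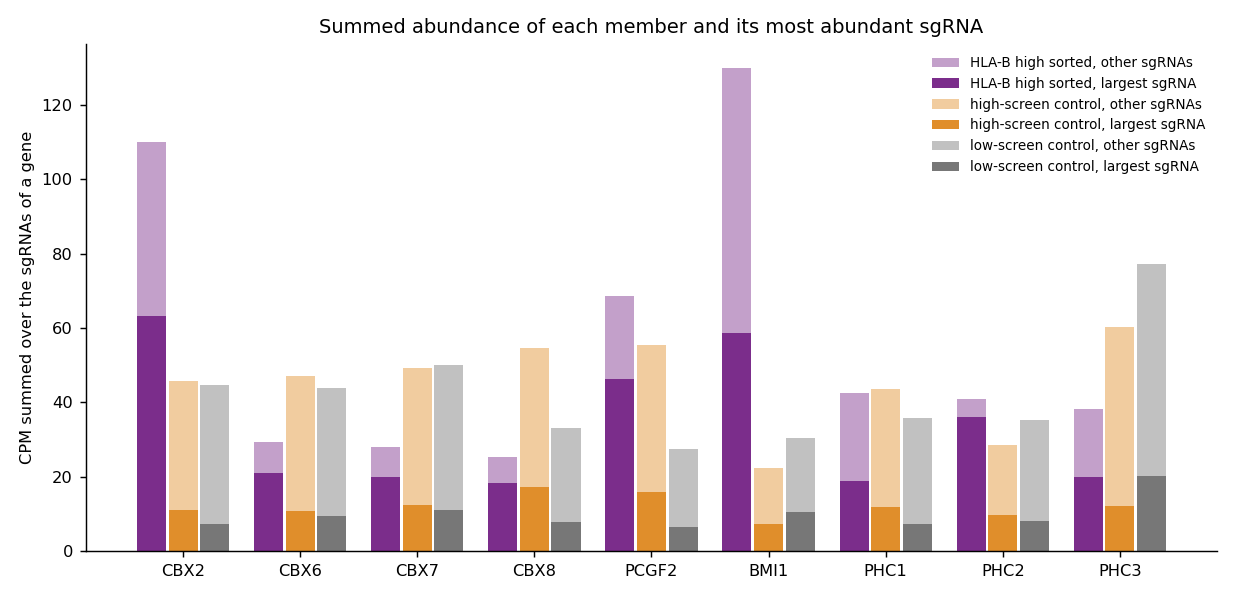
CPM summed over the sgRNAs of each member in the HLA-B high sorted library (purple), the high-screen control (orange) and the low-screen control (grey), with the most abundant sgRNA of that library in the dark part of each bar. BMI1 reaches 129.9 CPM and CBX2 109.9 CPM in the sorted library, and a single sgRNA makes up between 44.1% (PHC1) and 88.3% (PHC2) of a member's sorted reads.

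The PHC subunits, the polymerising arm of the complex, had 4 of 27 ranked sgRNAs above 1 over the high pool (14.8%). Absent from the sorted library were 10 of 30 (33.3%). Over all gene-targeting sgRNAs those shares were 12.6% and 50.8%. PHC1 (chromosome 12, 9066492 to 9094063, plus strand) ranked highest of the members by RSA, at position 182 of 20314 genes over the high pool, but at position 6607 of 20295 over the low pool. sgRNA 8 had 421 reads in the sorted library, 12 in the high pool and 419 in the low pool, and sgRNA 10 had 641, 23 and 154 reads. The log2 ratios over the high pool were 4.44 and 4.15, and those over the low pool 1.53 and 3.57. Both sgRNAs were thinly represented in the high pool, where the median member sgRNA had 82.5 reads. The other 7 ranked PHC1 sgRNAs were all below 0, among them sgRNA 1 with 159 sorted reads against 180 and sgRNA 7 with 212 against 266 in the high pool. At the low end sgRNA 9 had 0 sorted reads against 131, at least 66.3-fold lower. The PHC1 median was -1.93 (-7.00 to -0.78), and -6.01 with a minimum of 50 reads, which leaves out sgRNAs 8 and 10. Summed over sgRNAs PHC1 was at nearly the same level, 42.4 CPM in the sorted library and 43.5 CPM in the high pool.

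PHC2 (chromosome 1, 33789224 to 33896696, minus strand) had 88.3% of its sorted reads in a single sgRNA. That sgRNA, number 7, had 1233 reads in the sorted library, 215 in the high pool and 690 in the low pool, with log2 ratios of 1.91 and 2.36. The highest ratio of PHC2 over the high pool was 2.01 for sgRNA 5, which had 126 sorted reads against 20 there and 221 in the low pool. The other 6 ranked PHC2 sgRNAs were all below -1, and the lowest, sgRNA 6, had 0 sorted reads against 90, at least 45.6-fold lower. The PHC2 median was -4.93 (-5.90 to -1.24). PHC3 (chromosome 3, 169804520 to 169899537, minus strand) had no sgRNA above 1 and a median of -2.20 (-5.58 to -0.34). Its highest, sgRNA 5, had 683 reads in the sorted library, 272 in the high pool and 1986 in the low pool, a log2 ratio of 0.72 over the first pool and -0.02 over the second. sgRNA 9 had 362 sorted reads against 225 and 274 in those pools, with ratios of 0.08 and 1.92. The lowest, sgRNA 8, had 0 sorted reads against 164 in the high pool, at least 83.02-fold lower. PHC3 sgRNAs 4, 6 and 10 had 26, 127 and 78 sorted reads against 36, 107 and 65 in the high pool. Scaled to depth, all were lower in the sort, with log2 ratios of -1.04, -0.35 and -0.34. The RSA p for enrichment was 0.0982 for PHC2 (exact adjusted p = 0.999) and 0.630 for PHC3 (exact adjusted p = 1).

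Across the members 1 or 2 sgRNAs above 1 often stood beside others that were low or absent. Against the high pool 5 of 9 members had exactly 2 sgRNAs above 1, and at least 2 were found in 29.6% of the genes tested. No member had 3 or more ranked sgRNAs above 1, a number reached by 9.35% of genes. For BMI1 this depends on the minimum of 10 reads. Its sgRNA 10 had 2008 sorted reads against 5 in the high pool (log2 ratio 7.83) and was not ranked. Depletion was scored from the other end in the same way, and the lowest RSA p there was 0.118 for CBX6, with 6 sgRNAs at its best rank (exact adjusted p = 0.966). Absence from the sort was common in canonical PRC1, 36 of 88 sgRNAs or 40.9% (30.5 to 51.9%), against 50.8% of all gene-targeting, 49.6% of safe-targeting and 36.3% of non-targeting sgRNAs. Absent member sgRNAs had a median of 69.5 reads in the high pool and listed ones 92.5, where the values over all gene-targeting sgRNAs were 61 and 117. Among the PHC members the order was the other way, 92.5 for absent and 76 for listed sgRNAs. The part of this difference in depth in the low ratios was not tested.

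The low pool served as a second, more deeply sequenced unsorted pool. It shares the sorted library with the comparison above, so its values are given side by side and are no independent test. Against it 0 of 9 members were called enriched, where 0.37% of 20295 genes were (75 genes), and 0 were called depleted, where 0.586% were (119 genes). Of 79 ranked member sgRNAs 16 were above 1, or 20.3% (12.0 to 30.8%). The share was 13.2% of gene-targeting, 12.2% of safe-targeting and 18.4% of non-targeting sgRNAs. Below -1 were 51, or 64.6%, against 71.5% of gene-targeting, 72.9% of safe-targeting and 59.2% of non-targeting sgRNAs. The median of the gene medians was -5.08 for the members and -5.62 over all genes, and with absent sgRNAs at the floor -3.57 and -3.87. CBX2 again had the highest median, -0.54, with 3 of 9 sgRNAs above 1, and CBX6 the lowest, -7.26. BMI1 (median -3.47) and PCGF2 (-6.06) also had 3 sgRNAs above 1. The medians of the rest ran from -6.56 for CBX8 and -6.33 for CBX7 over -5.08 for PHC2 and -3.70 for PHC1 to -3.01 for PHC3. The lowest RSA p for enrichment was 0.0065 for BMI1, which rested on sgRNA 10 alone (exact adjusted p = 0.905), followed by 0.0371 for CBX2.

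A log2 ratio above 1 over both unsorted pools was found for 10 of the 76 member sgRNAs ranked against both, or 13.2% (6.49 to 22.9%), against 9.82% of gene-targeting, 8.99% of safe-targeting and 12.9% of non-targeting sgRNAs. They were sgRNAs 4 and 8 of CBX2, 9 of CBX7, 6 and 10 of PCGF2, 4 and 5 of BMI1, 8 and 10 of PHC1 and 7 of PHC2. CBX6, CBX8 and PHC3 had none.

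**Figure D4:**
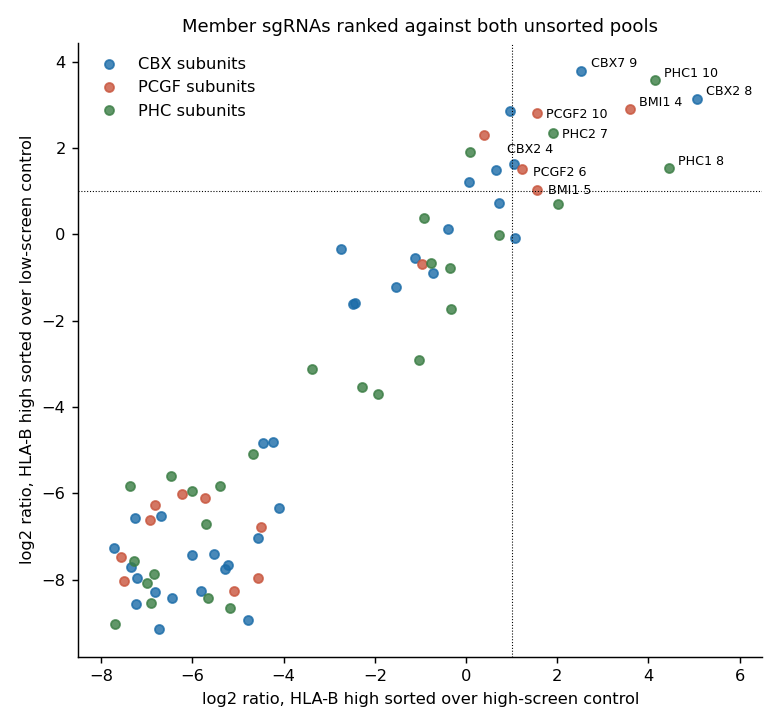
log2 ratio of each member sgRNA ranked in both comparisons, HLA-B high sorted over high-screen control (horizontal) and over low-screen control (vertical), coloured by subunit family, with dotted lines at 1. Both axes share the sorted library. The 10 labelled sgRNAs of 6 members lie above 1 on both axes.

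The unsorted pools were set against each other to see how the abundance of these knockouts differed without an HLA sort. Their screens used different IFN-γ doses and sort days, so that dose, time and library cannot be told apart. No member was called higher in the high pool, where 0.821% of 20341 genes were (167 genes), or lower, where 0.733% were (149 genes). Of 86 ranked member sgRNAs 22 were above 1 (25.6%, against 22.6% of gene-targeting sgRNAs) and 23 below -1 (26.7%, against 23.7%). Gene medians of the members lay between -0.63 for BMI1 and 1.01 for PCGF2, and their median was 0.14 beside -0.02 over all genes. PCGF2 had 9 of 10 sgRNAs above 0 and 55.4 CPM in the high pool against 27.4 in the low pool, 2.03-fold. Its RSA p was 0.0038 with 9 sgRNAs at the best rank, and its exact p of 0.0236 did not pass adjustment over all genes (exact adjusted p = 0.688). The exception was PCGF2 sgRNA 3, with 17 reads in the high pool and 162 in the low pool. CBX8 followed with an RSA p of 0.0082 (exact adjusted p = 0.746) and 54.6 CPM in the high pool against 33.2 in the low pool. That score rested on sgRNAs 4 and 8, with 81 and 70 reads in the high pool and none in the low pool, at least 117.8-fold and 101.8-fold higher.

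BMI1, with the lowest median of -0.63, had 22.4 CPM in the high pool and 30.3 in the low pool. The other medians were 0.44 for CBX2, -0.23 for CBX6, 0.19 for CBX7, 0.14 for PHC1, -0.48 for PHC2 and -0.42 for PHC3. PHC3 had 60.2 CPM in the high pool and 77.2 in the low pool, with 8 of 10 sgRNAs below 0 (RSA p = 0.0414 for lower values, exact adjusted p = 0.928). Absence from a pool was more frequent on the low-screen side in the members and over all genes alike: 8 of 87 member sgRNAs seen in the high pool were missing from the low pool (9.20%, 4.05 to 17.3%), against 6.58% of gene-targeting sgRNAs. These were sgRNA 10 of CBX2, 5 of CBX6, 6 of CBX7, 4 and 8 of CBX8, 6 and 9 of BMI1 and 6 of PHC1. The reverse was seen for sgRNA 2 of CBX7 alone, with 0 reads in the high pool and 275 in the low pool (1.25% of the 80 member sgRNAs seen in the low pool, against 2.26% of gene-targeting sgRNAs). The low pool was the more deeply sequenced of the pools.

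**Figure D5:**
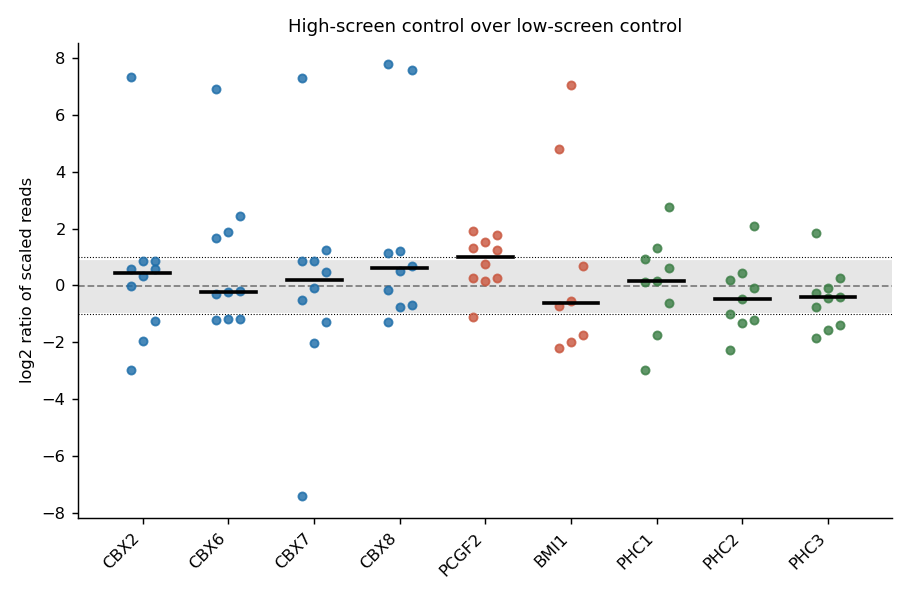
log2 ratio of scaled reads for each ranked sgRNA of the 9 members, high-screen control over low-screen control, with gene medians as black bars, the interquartile range and median of all gene-targeting sgRNAs as grey band and dashed line, and dotted lines at 1 and -1. The medians lie between -0.63 (BMI1) and 1.01 (PCGF2), and the points above 4 are sgRNAs with no read in the low-screen control.

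The enzymes and relatives of canonical PRC1 give the frame for these values. The catalytic subunits, shared by all PRC1 forms, gave 0 of 2 calls in the sort over the high pool. For RING1 the median was -2.08 and 2 of 10 sgRNAs exceeded 1, and for RNF2 they were -1.62 and 1 of 9. Among the PCGF proteins of variant PRC1 1 of 4 was called enriched, PCGF1, which defines the variant complex with KDM2B and BCOR. All 10 of its sgRNAs were above 0 and 9 above 1, with a median of 2.99 and an exact adjusted p of 0.00027. By contrast, PCGF2 had 2 sgRNAs above 1 and BMI1 2, and the other variant PCGF proteins had medians of -5.79 for PCGF3, -2.70 for PCGF5 and -4.98 for PCGF6. A test of the difference between PCGF1 and the members was not made. The variant partners RYBP, YAF2, KDM2B, BCOR and BCORL1 gave 0 of 5 calls and a median of -4.55. The PRC2 core, which writes the mark that CBX proteins read, gave 2 of 4 calls, EZH2 and EED, with a median over the list of 2.80 beside -4.54 over all genes. EZH1, the paralogue of EZH2, had a median of -4.64. Over the low pool the list median was 0.82 and 2 of 4 were called, again EZH2 and EED. EZH2 was at 4.56 there (exact adjusted p = 5.95e-06), EED at 0.91 (exact adjusted p = 0.754), SUZ12 at 0.73 and EZH1 at -7.35. PCGF1 was also called over the low pool, with a median of 3.19 (exact adjusted p = 0.0042). Over the high pool 6 of the 10 SUZ12 sgRNAs were ranked, and all 6 were above 1, with a median of 2.55. SUZ12 had an exact adjusted p of 0.0080 there but 2 sgRNAs at its best rank, which is under the 4 that a call needs. Between the pools no RING, variant PCGF or partner gene was called, while 2 of 4 PRC2 core genes, EED and SUZ12, were called lower in the high pool, with exact adjusted p values of 0.593 and 0.400.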

How the data were processed

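Each of the 3 deposited files lists sgRNAs with their counts of reads, which the authors left unnormalized. Per the study's methods, constant sequence was clipped from the reads, which were aligned to the sgRNA library with Bowtie2, and multiply aligned reads were dropped. Tools named in the submitters' processing notes are Bowtie2, bcl2fastq and cutadapt, with versions not given in the sources used here. An sgRNA that a file does not list was given 0 reads. Unmatched reads (21.9% of the HLA-B high sorted library, 20.6% of the high-screen control and 12.1% of the low-screen control) were left out. Members, gene lists and tests were chosen with earlier results of these data known.

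Counts were scaled to the mean depth of the pair of libraries compared, and log2 ratios taken with a pseudocount of 1 read for sgRNAs that had 10 or more reads in the unsorted pool (in either pool when pools were compared). CPM were computed over matched reads. RSA was run one-sided from each end, letting only sgRNAs past a log2 ratio of 0 in the direction tested set the best rank. Its exact p comes from the null in which sgRNAs are assigned to genes at random, adjusted by Benjamini-Hochberg over all genes. Called genes need an RSA p under 0.001 and 4 sgRNAs at or beyond the best rank. The score was tested on simulated data. Bounds for sgRNAs with 0 reads use a floor of 3 reads per library. Intervals of shares take sgRNAs as independent draws, and intervals of medians are taken over the ranked sgRNAs of a gene. Neither covers the error of read counts or a spread between libraries. PCR reads without molecular identifiers are not independent molecules.

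All 9 members were named, with their highest and lowest sgRNA and those above 1 over both pools. Other genes were taken from lists of RING, variant PCGF, variant partner, SCM, HP1 and PRC2 core genes. Alternatives were scaling to safe-targeting reads, a pseudocount of 5, no minimum or a minimum of 50 reads, dropping the most extreme sgRNA per gene, a count of 4 sgRNAs past 1, the other pool and summed reads. Gene positions are from GENCODE 44 lifted to GRCh37, matched by identifier for 8 members and by symbol for PCGF2. The counts involve no genome build. Computation used Python 3.11.15, numpy 2.4.6, pandas 2.3.3, scipy 1.17.1, numba 0.67.0 and matplotlib 3.10.9.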

Additional observations from a re-analysis of the deposited data

How the results depend on the processing

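The count of called members was 0 in both directions in each of the 3 comparisons under every alternative run: safe-targeting scaling, a pseudocount of 5, no minimum or a minimum of 50 reads, without the most extreme sgRNA of each gene, and 4 sgRNAs past a log2 ratio of 1. Among alternatives chosen after seeing the data, the same held when any rank could give the score and when the pseudocount preceded scaling. Calls over all genes moved further in some settings. Over the high pool 63 genes were called enriched, and 108 with any rank and 110 without the most extreme sgRNA, while 85 were called depleted, and 144 by sgRNAs past -1 and 163 without the most extreme sgRNA. Over the low pool 75 enriched calls became 131 and 114 in those first settings, and 119 depleted calls became 198 without the most extreme sgRNA. Between the pools 149 lower calls became 251 without it, and 167 higher calls became 109 with a minimum of 50 reads. The share of member sgRNAs above 1 stayed between 12.5% (minimum of 50 reads) and 20.3% (low pool as the pool). Summed reads gave a different picture from medians: the median over the 9 members of the log2 ratio of summed reads was -0.036 against -4.56 for the medians over the high pool, and 0.21 against -5.08 over the low pool. CBX2 went to 1.26 over the high pool and CBX7 to -0.83 over the low pool in this way. Medians of single members were not stable, since their intervals over 6 to 10 sgRNAs were wide (-7.50 to 3.61 for BMI1 over the high pool). Over the high pool a minimum of 50 reads turned BMI1 to 1.56 and put PHC1 at -6.01, and summed reads turned BMI1 to 2.54, PCGF2 to 0.31 and PHC2 to 0.52. Over the low pool CBX2 was at 0.09 and BMI1 at 0 with no minimum, and BMI1 at -7.96 without its highest sgRNA. That 0 is no measured ratio: it comes from BMI1 sgRNAs 6 and 9, which had no read in the sorted library or the low pool. Summed reads there turned CBX2 to 1.30, PCGF2 to 1.33, BMI1 to 2.10, PHC1 to 0.25 and PHC2 to 0.21. Between the pools, values near 0 changed sign for CBX6 (0.11 with summed reads) and CBX7 (-0.10 without its highest sgRNA, -0.022 with summed reads). No paired analysis was possible because each group has 1 library and the labels carry no replicate numbers, which also left no replicate to leave out. Depth limits the low end, since an absent sgRNA with 10 reads in the high pool can be bounded at 5.06-fold only.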

Other observations

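Relatives of the member families that are not part of canonical PRC1 or join it loosely were also measured. The HP1 chromobox proteins CBX1, CBX3 and CBX5, which share the chromodomain with the CBX members but read methylated lysine 9 of histone H3, gave 0 of 3 calls in the sort over the high pool. Their medians were -1.05, -5.37 and -3.75, and 3 of 9 CBX1 sgRNAs exceeded 1 (RSA p = 0.0201, adjusted by the exact null 0.967). The SCM proteins, which can join canonical PRC1 through their SAM domain, gave 0 of 3 calls, with medians of -3.51 for SCMH1, -3.47 for SCML1 and -2.46 for SCML2. In the pools neither list had a called gene.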
